A study of Schmidtea mediterranea with 9 samples.

Results

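The transcripts described here are 54 assembled components whose level in dividing planarian stem cells was higher in every wounded sample than in every uninjured one. They were chosen from 46723 components, the assembler's groups of contigs that stand closest to genes, after the most abundant component had been set aside. A component was taken when its mean over the 9 libraries lay between 5 and 500 CPM (mapped reads scaled to a common library total, counts per 1e+06 reads, without that most abundant component), when its lowest wounded library exceeded its highest 0 h library, and when the log2 ratio of the group means to the 0 h mean was at least 0.4 for each wound. The level window held 9333 components, so the members were 0.579% of those that could be chosen. The same CPM values of the wounds and the 0 h group chose the members, and everything said below of their level relative to 0 h is therefore a description without a test. The mirrored rule gave 79 components that were lower after both wounds.

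The cells came from asexual Schmidtea mediterranea, a freshwater flatworm, and were taken from starved animals. In all 3 groups they were pre-pharyngeal X1 cells, sorted by flow cytometry out of the region anterior to the pharynx as viable cells whose DNA stain exceeded that of an undivided diploid cell, and their poly(A) RNA was sequenced. The groups, of 3 libraries each, were the 0hr control without a wound, 48hr after an anterior wound (the head was removed) and 48hr after a posterior wound (the tail and pharynx were removed). An uninjured group at 48 h is not among the samples, so the wound and the time passed cannot be told apart, and both wounds are set against the same 3 control libraries.

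Neoblasts are the dividing cells of the adult planarian body and the source of every replaced cell. The X1 gate collects those in or past DNA synthesis. After an amputation, neoblasts divide near the wound, and some begin to express transcription factors of the tissue that is missing, which is called specialization. In a sorted pool a higher transcript level can come from more cells that hold the transcript or from more transcript in each cell, and these cannot be told apart here. The files do not pair components with gene names and give no sequence, so the members are named by identifier, no role is given to any of them, and the neoblast identity of the cells could not be checked against marker genes.

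Mapped reads numbered between 14674800 (0 h replicate 1) and 23700877 (0 h replicate 3), of which between 23097 and 66959 per library fell on the 54 members. The least covered value of any member was 19 reads. The library 0 h replicate 1 stood apart from the rest: 11.4% of its reads were unmapped (95% Wilson interval 11.36% to 11.39%, counting error only), against 3.96% to 5.46% in the other 8. It also held lower levels on short contigs. Over the 9333 components of the level window, its median log2 ratio to the mean of the other controls was -0.38 where the longest contig was under 1000 bases, -0.03 between 1000 and 3000 bases, and 0.21 at 3000 bases or more. By the median SD of log2 CPM in the window, control libraries differed more than wounded ones did: it was 0.25 within the controls, 0.12 within the anterior group and 0.17 within the posterior group. A chi-square of the counts of paired replicates, divided by its degrees of freedom, was 37.3 and 56.2 for pairs with 0 h replicate 1. It was 21.5 between 0 h replicates 2 and 3, and 33.1 between posterior replicates 2 and 3. The other wounded pairs gave 5.66 to 17.3.

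The 54 members together made up 1733.1 CPM in 0 h replicate 1, 2560.8 in replicate 2 and 2633.8 in replicate 3. After the anterior wound their sum was 3597.4, 3699.8 and 3418.4 CPM in replicates 1 to 3. After the posterior wound it was 4041.4, 4287.7 and 3916.0 CPM. In CPM the posterior libraries were the highest, the anterior ones intermediate, and 0 h replicate 1 lay well below both other controls. With the trimmed mean of M values of edgeR (TMM), a scaling for the makeup of each library applied here to all mapped reads, the wounds overlapped: the sums were 3162.7, 3275.8 and 2954.1 after the anterior wound, then 3275.0, 3300.4 and 3645.8 after the posterior one. The controls stayed below, at 1502.0, 2213.7 and 2226.2. The member ratios to 0 h ran from 1.33-fold to 4.48-fold after the anterior wound, with a median of 1.46-fold (log2 0.54). They ran from 1.34-fold to 7.27-fold after the posterior wound, with a median of 1.52-fold (log2 0.61). Over the whole level window the median log2 ratios were -0.005 and 0.05. Most members were therefore only modestly higher: 10 reached 2-fold after the anterior wound, 13 after the posterior one, where 0.193% and 0.825% of all components in the window did.

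**Figure D1:**
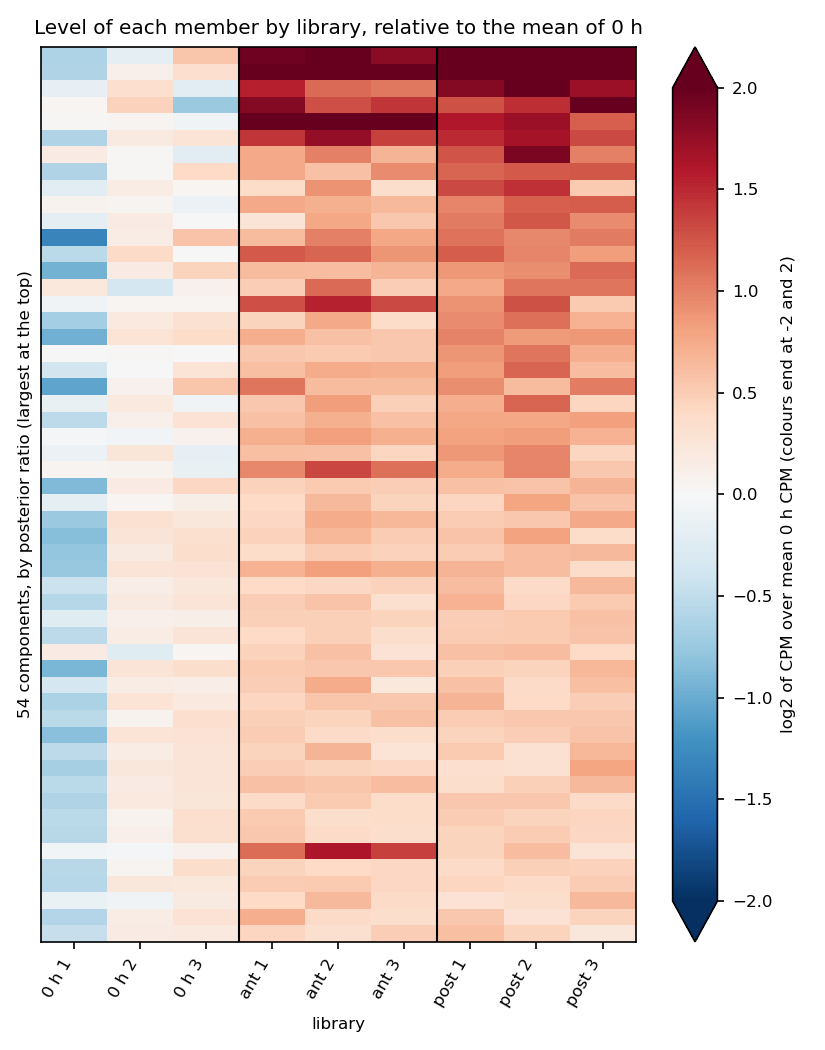
Each row is 1 of the 54 members, each column 1 library (0 h, anterior wound, posterior wound), and the colour gives log2 of the CPM over the mean 0 h CPM. The wounded columns are red throughout because of how the members were chosen, while 0 h replicate 1 is the bluest column, being the lowest control at 43 of the 54.

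In 7 members both wounds stood at 2-fold or more over 0 h and the 4 gaps of at least 1 log2 unit between the lowest wounded and the highest control library were among them. The widest belonged to comp11581_c0, a component of 1 contig of 1307 bases. It measured 2.63, 4.26 and 5.03 CPM in 0 h replicates 1 to 3, 17.1, 17.4 and 18.8 CPM after the anterior wound, then 23.1, 20.1 and 16.1 CPM after the posterior one. Its lowest wounded library was 1.68 log2 units above its highest control, and the wounds overlapped each other. Its ratio was 4.48-fold after the anterior wound, 4.98-fold after the posterior one. Without 0 h replicate 1, its lowest control, the log2 ratios moved from 2.16 and 2.32 to 1.94 and 2.09.

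The component comp17960_c0, of 1 contig of 803 bases, was the steadiest in the controls among the named members, at 5.25, 5.35 and 4.93 CPM. It stood at 21.6, 24.0 and 21.4 CPM after the anterior wound, then at 15.8, 17.0 and 11.9 CPM after the posterior one. Every anterior library was above every posterior one, and all 6 were above the controls. The ratios were 4.31-fold and 2.87-fold, and leaving out 0 h replicate 1 changed the log2 ratios only from 2.11 to 2.12 and from 1.52 to 1.53.

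The component comp1298_c0, of 1 contig of 640 bases, leaned the other way. It measured 6.23, 8.32 and 14.1 CPM in the controls, 36.9, 38.3 and 33.5 CPM after the anterior wound, then 59.5, 79.3 and 69.3 CPM after the posterior one. The 3 groups did not overlap, with the posterior wound highest. Its ratio of 7.27-fold was the largest of any member after the posterior wound, and its anterior ratio was 3.80-fold.

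The component comp838_c0, a short contig of 396 bases, was among the most abundant members per length, at 722.8 CPM per kilobase as a mean over the libraries. It stood at 107.0, 151.1 and 102.8 CPM in the controls, 354.0, 262.7 and 249.7 CPM after the anterior wound, then 431.3, 522.2 and 395.2 CPM after the posterior one. Again the 3 groups did not overlap and the posterior libraries were highest, with ratios of 2.40-fold and 3.74-fold. The other 3 of the 7 members, of 490 to 860 bases, had ratios between 2.14-fold and 2.90-fold after the anterior wound and between 2.03-fold and 3.17-fold after the posterior wound. The gap between the lowest wounded and the highest control library was between 0.45 and 1.68 log2 units at the 7.

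**Figure D2:**
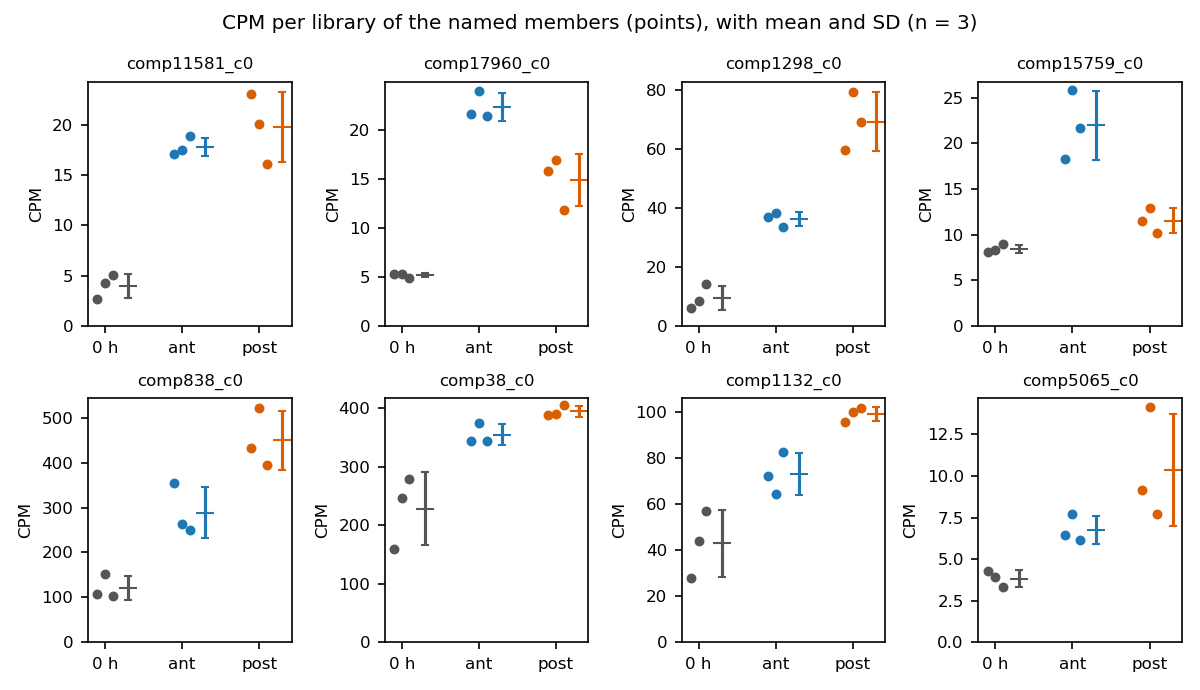
CPM of the 8 members named in the text, by group (0 h, anterior and posterior wound), with each point a library and the bar beside it the mean and SD (n = 3). All wounded points lie above all control points by selection, and the anterior and posterior points separate in opposite directions at comp17960_c0 and comp1298_c0.

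Much of the membership rested on 1 control library. The library 0 h replicate 1 was the lowest control at 43 of the 54 members (79.6%), where it was so at 47.5% of the components in the window. Its median log2 ratio to the mean of the other controls was -0.74 over the members and -0.09 over the window. At 34 members it was lower than those by 0.5 log2 units or more, as it was at 24.1% of the window. The rule used these control values, and 1 low control lowers the 0 h mean while the highest control is unchanged. These comparisons of the controls with the window, and those below, are therefore a description. With this library left out of the whole rule, 49 components met it, of which 26 were members and the rest were not. When the group means were taken without this library, 26 members still reached a log2 ratio of 0.4 for both wounds and 28 did not. This division was made after the values were seen. It used the ratios without 0 h replicate 1, so the fall of the 28 and the low level of that library in them follow from it.

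The 26 had summed levels of 880.0, 1077.4 and 1049.7 CPM in the controls, 1790.6, 1837.0 and 1653.5 CPM after the anterior wound, then 2117.7, 2378.9 and 2006.4 CPM after the posterior one. Among the 26 themselves, 0 h replicate 1 was the lowest control at 15 and at least 0.5 log2 units below the mean of the other controls at 9, down to -1.70 at 1 of them. The 28 had summed levels of 853.1, 1483.4 and 1584.1 CPM in the controls, 1806.8, 1862.8 and 1764.9 CPM after the anterior wound, then 1923.7, 1908.8 and 1909.6 CPM after the posterior one. Here 0 h replicates 2 and 3 came near the wounded libraries, and 0 h replicate 1 was the lowest control at all 28. The median log2 ratios of the 28 fell from 0.48 to 0.26 (anterior) and from 0.53 to 0.30 (posterior) without it. Those of the 26 went from 0.78 to 0.73 and from 1.00 to 0.89. For the 7 members at 2-fold or more after both wounds, the log2 ratios without it were at least 0.88 (anterior) and 0.81 (posterior).

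**Figure D3:**
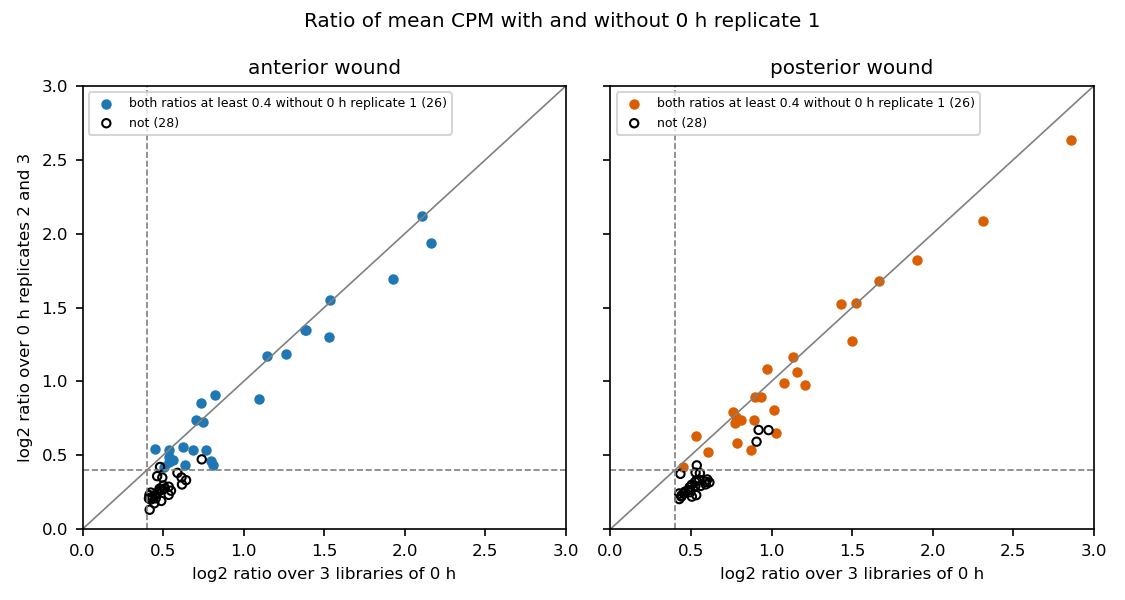
Log2 ratio of mean CPM to 0 h for each member, with all 3 controls on the x axis and with 0 h replicates 2 and 3 alone on the y axis, for the anterior (left) and posterior (right) wound. Dashed lines mark 0.4 and the solid line equality. The 28 open circles, members below 0.4 on the y axis for at least 1 wound, lie under the line of equality. The 26 filled points stay at 0.4 or above in both panels. Both follow from how the members were divided.

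The members were also short. Their longest contig had a median of 844 bases (range 251 to 2818), against 1350 bases over the window. In 34 of the 54 (63.0%) it was under 1000 bases, as in 32.6% of the window, and none reached 3000 bases, as 11.1% of the window did. Among the 28 that depended on 0 h replicate 1, 20 were under 1000 bases, and among the 26 others 14 were. The median lengths were alike, at 844.5 and 836.5 bases. At members under 1000 bases the median log2 ratio of 0 h replicate 1 to the other controls was -0.75, against -0.38 in the window. At members of 1000 to 3000 bases it was -0.58, against -0.03 in the window. The part of contig length in the choice of members was not tested. Single-contig components made up 45 of the 54 (83.3%) and 61.8% of the window. Per length, members ranged from 2.48 to 1299.8 CPM per kilobase, with a median of 37.6 against 21.7 in the window.

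The library 0 h replicate 3 set the number of members from the other side. It was the highest control at 35 of the 54 (64.8%) and at 44.8% of the window. Without it 934 components met the rule, among them all 54, and without 0 h replicate 2 there were 107. Leaving out 1 wounded library gave between 53 and 74. With all 9 libraries, 272 components (2.91% of the window) had every wounded library above every control, and the ratio requirement removed 218 of them. Just inside it, the smaller of the log2 ratios was 0.41, 0.42 and 0.42. Just outside it stood at 0.40, 0.39 and 0.39. The gap between the lowest wounded and the highest control library was under 0.1 log2 units at 21 members and 1 or more at 4.

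By edgeR's quasi-likelihood test over the 21322 components that passed its filter on low counts, all 54 members entered, 6 were called higher after the anterior wound, 6 after the posterior one at an adjusted p under 0.05. Of all components tested, 0.0281% were called higher in each comparison. These calls use the contrasts that chose the members, so nothing is read from their number. DESeq2 called 12 members (0.0669% of all components were called higher) and 16 members (0.156%). The counts moved with single libraries: leaving out each of the 9 in turn gave between 1 and 4 members for the anterior wound and between 2 and 12 for the posterior wound, the last without 0 h replicate 3. Over all components, these fits called between 1 and 4 higher after the anterior wound and between 2 and 265 after the posterior one. The 265, of 22705 components tested, also came without 0 h replicate 3, so the rise was not particular to the members. Anterior counts were 3 without 0 h replicate 1 and 1 without 0 h replicate 2 or any 1 anterior replicate. They were 2, 3 and 3 without posterior replicates 1 to 3. Posterior counts were 2 without 0 h replicate 2 or posterior replicate 1, and 3 without any 1 anterior replicate or posterior replicate 2.

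In the authors' deposited table of DESeq results, 7 members were called higher after the anterior wound at an adjusted p under 0.05, where 0.0176% of all components in that table were. The authors' deposited table called 8 members higher after the posterior wound, against 0.0330% of all components. These calls took in 10 different members, 5 of them in both comparisons. They rest on the contrasts that chose the members, so nothing is read from them. Member folds in the authors' deposited table ran from 1.38 to 4.64 (median 1.51) after the anterior wound and from 1.29 to 6.96 (median 1.49) after the posterior wound. In the deposited summed counts the column for posterior replicate 3 is a copy of replicate 2 wherever a component has several contigs, as 9 members do, and 2 of the 8 members called for the posterior wound in the authors' deposited table are such components. Over the 3566 components of several contigs in the level window, the posterior folds of the authors' deposited table went with those sums, from which they differed by a median of 0.0024 log2 units (without sign), against 0.11 for the counts of the separate libraries. Over the 5767 components of 1 contig, which hold no copied value, these medians were 0.0024 and 0.065. The 0.11 is therefore not a measure of the copy alone. Those 2 calls are comp5065_c0 and comp1132_c0, at which the deposited sums hold the copied column. Whether they would be called without the copy was not tested. For comp5065_c0 the posterior fold in the authors' deposited table was 3.09, where the CPM of the separate libraries gave 2.70. For comp1132_c0 these were 2.18 and 2.31. The authors' folds and the CPM ratios are also scaled differently. At comp11581_c0, of 1 contig and so without the copy, they were 4.75 and 4.98.

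The difference between the wounds was not itself a condition of the choice, but the choice limits it: a component high after 1 wound alone could not be a member, so the members were held towards like levels after both. The counts and medians over members are therefore given as a description, and the test is read for single members only. The question was whether these transcripts reached different levels after the loss of the head and after the loss of the tail and pharynx. No member was called between the wounds (0 of 54) by the quasi-likelihood test of edgeR at an adjusted p under 0.05, as 0.00% of all 21322 components were. At an unadjusted p under 0.05, 4 members were higher after the anterior wound, 6 after the posterior one, where 0.868% and 1.86% of all components were. limma-voom also called 0 members, and DESeq2 called 1, where it called 0.0150% of all components higher after the anterior wound and 0.0698% higher after the posterior one. The median log2 difference (anterior minus posterior) was -0.01 over the members, with a range from -0.87 to 1.00 and a median SE of 0.21, and 42 members lay within 0.3 of 0. The absence of calls does not show equal levels, since a difference of 1.00 was not called either.

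The largest difference towards the anterior wound was at comp15759_c0, of 1 contig of 1566 bases. It measured 8.10, 8.28 and 8.94 CPM in the controls, 18.3, 25.9 and 21.7 CPM after the anterior wound, then 11.5, 12.9 and 10.2 CPM after the posterior one. The groups did not overlap, and the posterior libraries lay only just above the controls. The log2 difference between the wounds was 1.00 (SE 0.17), with an adjusted p = 0.903 by edgeR and an adjusted p = 0.00986 by DESeq2. Over all alternatives tried, the adjusted p ranged from 0.00986 to 1.00, and DESeq2 gave the sole call. The difference kept its sign in all 15 alternatives, with values from 0.86 to 1.10.

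At comp17960_c0 the log2 difference was 0.67 (SE 0.16, adjusted p = 1.00 by edgeR). Towards the posterior wound the largest differences were at comp1298_c0, with -0.87 (SE 0.24, adjusted p = 1.00 by edgeR), and at comp838_c0, with -0.56 (SE 0.18, adjusted p = 1.00 by edgeR). These 3 also kept their direction in all 15 alternatives, and none was called in any.

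Counted by libraries that do not overlap, 14 members had every posterior library above every anterior one in CPM, and 4 had the reverse. In the level window 12.0% and 2.78% of the components did. The count leans on scaling: with CPM scaled by TMM, these counts were 9 and 5 members, against 5.59% and 3.92% of the window. The TMM factors that divide the levels were 0.97, 0.95 and 0.97 in anterior replicates 1 to 3. In posterior replicates 1 to 3 they were 1.07, 1.14 and 0.90. The most abundant component, left out of the CPM of the rule, counts in the totals scaled by TMM. Under both scalings 8 members were higher in every posterior library and 4 in every anterior library. The log2 differences by edgeR were -0.87 to -0.28 for those 8 and 0.26 to 1.00 for those 4. By CPM the posterior ratio exceeded the anterior one at 41 of 54 members, and after TMM scaling within edgeR at 29 of 54. The share of the window with a higher posterior ratio was not computed. The median log2 ratio of anterior over posterior moved from -0.08 to -0.01 over the members with that scaling, and it was -0.07 by CPM over the window.

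**Figure D4:**
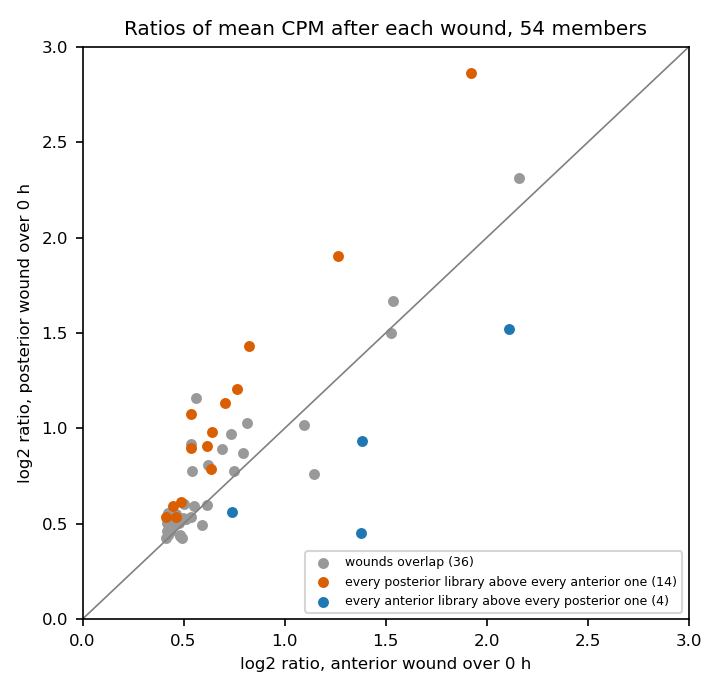
Log2 ratio of mean CPM over 0 h after the anterior wound (x) and the posterior wound (y) for the 54 members; both ratios share the same controls, and the line marks equality. Orange points are the 14 members with every posterior library above every anterior one, blue points the 4 with the reverse, and grey points the 36 whose wounds overlap.

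The most abundant member per length was comp38_c0, at 1299.8 CPM per kilobase of its longest contig of 251 bases. It stood at 159.9, 246.7 and 279.9 CPM in the controls, 344.6, 375.5 and 344.8 CPM after the anterior wound, then 389.4, 390.0 and 405.5 CPM after the posterior one. In CPM each group lay above the one before, and the controls spread most. With TMM scaling the wounds overlapped, at 303.0, 332.4 and 298.0 after the anterior wound, then 315.5, 300.2 and 377.5 after the posterior one. The log2 difference between the wounds was -0.09 (SE 0.18, adjusted p = 1.00 by edgeR). Its ratios were 1.55-fold and 1.73-fold. Without 0 h replicate 1 its log2 ratios went from 0.63 to 0.43 and from 0.79 to 0.58. The share of its reads on the longer of its contigs hardly moved, at 83.9% ± 0.64 in the controls, 83.1% ± 0.62 after the anterior wound, 82.4% ± 0.46 after the posterior one (SD, n = 3 each).

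Of the 54 members, 9 hold several contigs, 30 in all, and the share of reads on each contig was compared between groups. Between the wounds no member was called (0 of 9) by edgeR's test of contig usage over 4728 components with several contigs, and 0.00% of those were called. None of the 9 members reached an unadjusted p under 0.05 there, as 39 of the 4728 components did. Between the wounds and 0 h, the contrast that chose the members, 1 member was called, comp1132_c0, and it was the sole call among the 4728 components (0.0212%). Since that contrast was used, the shares are given as a description.

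The component comp1132_c0 has 6 contigs of 209 to 1028 bases. In total it stood at 28.2, 43.9 and 56.9 CPM in the controls, 72.5, 64.4 and 82.6 CPM after the anterior wound, then 95.9, 100.2 and 102.1 CPM after the posterior one. The difference between the groups lay in its longest contig, which measured 18.5, 34.4 and 48.4 CPM in the controls, 65.2, 57.5 and 75.6 CPM after the anterior wound, then 87.6, 88.0 and 96.9 CPM after the posterior one. The other 5 contigs together stood at 9.24 ± 0.62 CPM in the controls, 7.06 ± 0.23 CPM after the anterior wound, 8.53 ± 3.46 CPM after the posterior one (SD, n = 3 each), and none of the 5 had every wounded library above every control. The share of reads on the longest contig was 76.3% ± 9.81, 90.3% ± 1.16 and 91.4% ± 3.50 in the 3 groups in the same order, and it was lowest in 0 h replicate 1, at 65.7% against 78.3% and 85.0% in replicates 2 and 3. The usage call for this member was also made with each library left out in turn, and without 0 h replicate 3 it was 1 of 12 calls over all components. Since this contrast chose the members, nothing is read from that. The placing of reads that match several contigs of a component is not given in the sources used, so the shares of similar contigs are uncertain.

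**Figure D5:**
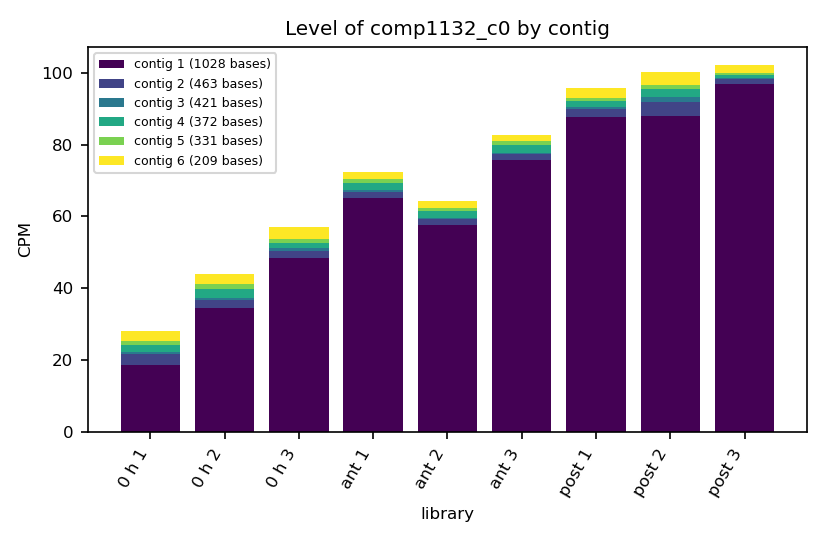
CPM of comp1132_c0 in each library, stacked by its 6 contigs (lengths in the key), from 0 h through the anterior to the posterior wound. The dark block of the contig of 1028 bases grows from 18.5 to 96.9 CPM while the blocks of the other 5 contigs stay thin.

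After comp1132_c0, comp5065_c0 ranked next among the 9 members in the usage test of the wounds against 0 h, but it was not called. Its contigs, the longer of 2818 bases, took near-equal shares. The longer one held 45.5% ± 2.23 of the reads in the controls, 54.3% ± 8.23 after the anterior wound, 49.6% ± 4.68 after the posterior one (SD, n = 3 each). The shares after the posterior wound overlapped those of the controls and those after the anterior wound. The total of comp5065_c0 was 4.28, 3.91 and 3.30 CPM in the controls, 6.46, 7.72 and 6.15 CPM after the anterior wound, then 9.19, 14.2 and 7.72 CPM after the posterior one. At this member 0 h replicate 1 was the highest control, unlike at most others, and it is the least abundant member per length, at 2.48 CPM per kilobase. Over the 9 members with several contigs, 11 of the 21 contigs that held at least 5% of their component's reads had every wounded library above every control on their own. The rule asked this of the sum of each component, so the count follows in part from the choice of members. The share over all contigs was not computed. Over the components of the level window it was 2.91%.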

How the data were processed

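Poly(A) RNA libraries of sorted planarian cells were sequenced. Bowtie2 2.0, SAMtools and DESeq are the tools listed, without their roles, per the submitters' processing notes; the assembly and the options are not given in the sources used here. The authors deposited a count of mapped reads per contig for each library, with the contig length in bases as the other quantity, in the same files. The authors also deposited summed counts per component, in which posterior replicate 3 repeats replicate 2 at all 7189 components of several contigs, and these served as an alternative. The DESeq table the authors deposited holds a ratio (fold) and an adjusted p-value for each wound.

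Counts were summed per component from the per-library files. Members were found on CPM without the most abundant component. Counts were tested with edgeR 4.0.16 (R 4.3.3; TMM, filterByExpr with a minimum count of 10, 1 quasi-likelihood fit of 3 groups over 9 libraries, Benjamini-Hochberg adjustment, calls at 0.05), and contig usage with its diffSpliceDGE. SEs are the log2 fold change over the square root of F. Alternatives were DESeq2 1.42.0, limma-voom (limma 3.58.1), other scalings, filters and rule limits, a replicate block, and each library left out. The authors' deposited posterior folds were compared with folds computed from both count sources with median-of-ratios size factors. Tests were tried on simulated data. The members, the lists and the rule for named components (the largest ratios, differences, levels per kilobase, gaps and the lowest usage p) were chosen with earlier results of these data known. Groups follow the sample titles. Of the listed marker genes, 0 could be matched, since identifiers carry no names. The labels do not say that replicates are separate cultures or animals, so a p-value sets a difference against library spread alone, in part perhaps technical; counts of replicates differed beyond sampling noise (chi-square divided by its degrees of freedom, 5.66 to 56.2). Columns left without a sample or group numbered 0.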

Additional observations from a re-analysis of the deposited data

How the results depend on the processing

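The rule gave 54 components. It gave 101 with a mean of 1 to 500 CPM, 272 without a minimum ratio and 7 with a log2 ratio of at least 1. Leaving out 1 library gave 49 to 934. With TMM scaling it gave 55, of which 43 were members, and with the most abundant component kept 52, of which 45 were members. Members called after the anterior wound, 6 in all, were 12 by DESeq2, 1 in a fit of the 6 libraries compared and 1 to 4 with a library left out. After the posterior wound, also 6, they were 16, 0 and 2 to 12. The 12 came without 0 h replicate 3, where 265 of all 22705 components tested were called higher. Between the wounds, 0 became 1 by DESeq2 and stayed 0 with each library left out. Contig usage gave 1 (wounds against 0 h, the contrast that chose the members) and 0 (between the wounds) in all 12 alternatives each. The median log2 ratio of the members, 0.54 and 0.61, ranged from 0.42 to 0.71 (anterior) and 0.53 to 0.76 (posterior) with a library left out. The median of anterior over posterior, -0.08, was -0.015 with TMM scaling and -0.12 to -0.05 with a library left out. Fits of 6 libraries rest on fewer samples; for the other changes the cause was not tested. With a replicate block, 5 members were called for the anterior wound, 6 for the posterior one and 0 between the wounds, and contig usage gave 1 and 0. Whether the replicate numbers pair the libraries was not settled by their deviations from the group means. There 3 of 9 same-number pairs correlated above 0.1, with r from -0.24 to 0.45. Between libraries of unlike number the highest r was 0.24. With members as low as 19 reads in a library, depth limits the lowest ones most.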
